A study of Capra hircus with 2 samples.

Results

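miR-182, miR-183 and miR-96 are the 3 miRNAs of one genomic cluster, and their levels, shares and end forms were measured in the mammary gland of dairy goats at peak and at late lactation. Goat mammary gland was sampled by surgery from healthy Laoshan dairy goats (Capra hircus), all 4 years old and in the third lactation period, 90 days after kidding for peak lactation and 210 days after it for late lactation. For each stage the RNA of 5 goats was mixed and made into 1 small RNA library, so neither stage had a replicate library and variation between goats could not be measured. The data are the number of reads of each distinct sequence, called a tag, from inserts read between ligated adaptors. The cluster members were found as the tags that contain nt 2 to 17 of each mature miRNA, which gave 251 of the 659118 distinct tags (160 for miR-182, 81 for miR-183 and 10 for miR-96). Of these, 238 occurred in the peak library and 70 in the late library.

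A miRNA guides a silencing complex to messenger RNAs that pair with its seed, the bases from nt 2 to nt 8, and it lowers the stability or translation of those messages. In vertebrates the 3 miRNAs are cut from a single primary transcript, and they have closely related seeds. They are best known from sensory cells of the ear and the eye, and they are also made in epithelia. In human breast cancer cells miR-96 and miR-182 are known to repress FOXO1, a transcription factor that slows growth. In the goat annotation (RefSeq, assembly ARS1.2) the genes stand in the order MIR183, MIR96 and MIR182, with no other annotated gene between them.

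The leading tag of each member, the one with the highest sum of levels over both libraries, is shown because its letters decide which reads were counted. The tags are written 5′ to 3′ as deposited, with T for U, and the seed (nt 2 to 8) is in capitals.
miR-182: tTTGGCAAtggtagaactcacact
miR-183: tATGGCACtggtagaattcact
miR-96: tTTGGCACtagcacatttttgct
The leading tags were 24 nt long for miR-182, 22 nt for miR-183 and 23 nt for miR-96. Counted from 1 at the 5′ end, miR-182 and miR-183 shared 13 of the 16 bases from nt 2 to 17, and the change from the former to the latter is T2A, A8C and C17T. miR-96 was less alike, with 10 of 16 bases shared with miR-182 (A8C, G10A, T12C, G14C, A16T and C17T). With miR-183 it shared 11 of 16 (A2T, G10A, T12C, G14C and A16T). Within the seed, miR-182 and miR-96 shared 6 of 7 bases, miR-183 and miR-96 also 6, and miR-182 and miR-183 5.

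An end form of miR-183 that starts at nt 2 of the leading tag carried much of its reads, and it presents another seed. It is shown in the pair of lengths that were among the most abundant tags of miR-183 in both libraries, with nt 2 to 8 of the tag itself in capitals.
miR-183 from nt 2 to nt 23: aTGGCACTggtagaattcactg
miR-183 from nt 2 to nt 24: aTGGCACTggtagaattcactga

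The peak library held 19044002 clean reads and the late library 7385833. Counts were divided by these totals and given as reads per 1000000 clean reads (RPM), so that 1 read was 0.0525 RPM in the peak library and 0.135 RPM in the late library. The libraries also differed in the reads removed by the authors' filters: reads with 5′ adaptor were 0.0494% of the high-quality reads at peak and 14.0% at late lactation, and reads without an insert were 0.628% and 7.73%. The part of this in the results was not tested, and library and stage cannot be told apart. Intervals are 95% intervals, exact Poisson for counts and exact binomial (Clopper-Pearson) for shares and ratios. They cover the counting error of reads only, not variation between goats or libraries. PCR copies one molecule into many reads, so the intervals may be too narrow for molecules.

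miR-182 and miR-183 were both lower in the late library, and the cluster as a whole stood at 2.06-fold less there. miR-182 held 15138 reads in the peak library and 2874 in the late library. This was 795 RPM (782 to 808) at peak and 389 RPM (375 to 404) at late lactation, a log2 ratio (late over peak) of -1.03 (-1.09 to -0.97). The intervals of the levels did not overlap. miR-183 held 4437 reads and 805 reads. Its level was 233 RPM (226 to 239.9) at peak and 109 RPM (102 to 117) at late lactation, and its log2 ratio was -1.10 (-1.21 to -0.99). miR-183 therefore moved in the direction of miR-182 and by a like amount, from a level that was lower in each library.

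miR-96 had by far the fewest reads of the members. It held 149 reads in the peak library (126 to 175) and 37 in the late library (26.1 to 51.0). These counts are 7.82 RPM (6.62 to 9.19) and 5.01 RPM (3.53 to 6.91), so the intervals of the levels overlapped. The log2 ratio was -0.64 (-1.20 to -0.12). With the leading tag alone it was -0.35 (-1.20 to 0.44), and with tags that contain the whole leading tag -0.32 (-1.14 to 0.45), so that the interval then included 0. Summed over the members, the cluster held 19724 reads (1036 RPM) at peak and 3716 reads (503 RPM) at late lactation, and its log2 ratio was -1.04 (-1.09 to -0.99).

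A ratio was called when it reached 2-fold and the Audic-Claverie formula, an exact calculation that compares the reads of 2 libraries and not the stages across goats, gave a P under 0.01. The rule took the P of the smaller tail, without doubling it. By this exact rule 2 of the 3 members, miR-182 (P = 5.53e-315) and miR-183 (P = 2.62e-103), and their sum were called lower in late lactation. miR-96 was not called, because its ratio of 1.56-fold (1.08 to 2.30) was under 2-fold, although P was 0.00669 (0.0168 with the 10 most abundant tags of each library left out of the totals). The background is large. When all tags were grouped in the same way, by nt 2 to 17 of their leading tag, 4130 of the 14433 groups with at least 1 RPM in one library (28.6%) were called lower in late lactation, and the median log2 ratio was -0.06. Among groups whose leading tag was 20 to 24 nt long and whose mean level was at least 100 RPM, 199 of 531 (37.5%) were called lower, with a median log2 ratio of -0.61. A lower level in late lactation was thus common among groups of abundant tags. The calls of the members are to be read against that share. A tag could fall in several groups, so groups can share reads and need not be distinct small RNAs. The fold changes of miR-182 and of the sum lay just past the 2-fold limit, and the call depended on the scaling. With the 10 most abundant tags of each library left out of the totals, the log2 ratios were -0.95 for miR-182 and -0.96 for the sum, under the limit. That scaling also changed the split of all calls. It went from 4130 lower and 4334 higher of 14433 groups to 4363 lower and 8347 higher of 24095 groups. The share called lower was then 18.1%, against 28.6%.

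**Figure D1:**
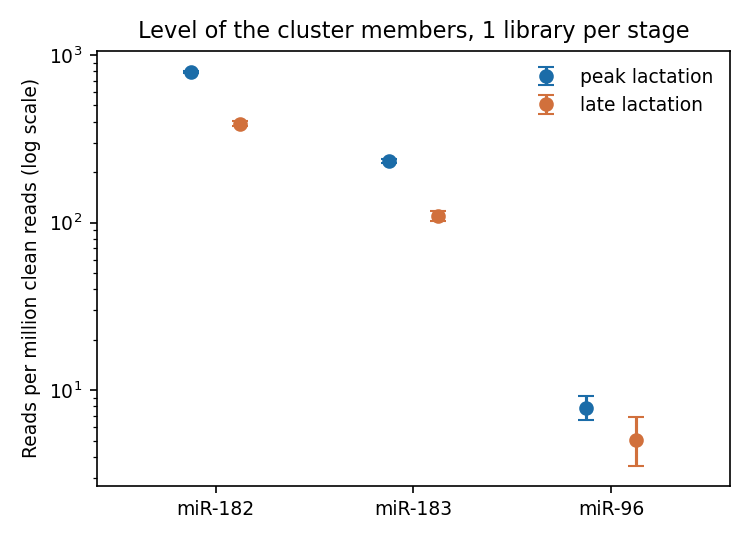
Level of miR-182, miR-183 and miR-96 in RPM, on a log scale, in the peak and the late lactation library (1 library of 5 pooled goats per stage); points are the levels and bars the 95% exact Poisson intervals. miR-182 stood at 795 and 389 RPM, miR-183 at 233 and 109 RPM, and miR-96 at 7.82 and 5.01 RPM.

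The order of the members was the same in both libraries, with miR-182 above miR-183 above miR-96, and neighbours in this order were far apart beyond their intervals. Among all 314872 tag groups, ranked by level, miR-182 was at rank 349 in peak lactation and 498 in late lactation. miR-183 was at rank 789 and 1028, and miR-96 at rank 4250 and 5132. The groups can share reads and were not limited to miRNAs, so a rank does not count the distinct miRNAs above a member. Although one transcript carries all 3 hairpins, their mature products thus held very unequal numbers of reads. Adaptor ligation and PCR can differ between sequences, and this was not measured. Reads of different members therefore need not stand for equal numbers of molecules.

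With all end forms counted, the shares of the partners in the reads of the cluster were nearly the same at both stages. miR-182 made up 76.7% (76.2% to 77.3%) of the reads of the cluster at peak and 77.3% (76.0% to 78.7%) at late lactation. miR-183 made up 22.5% (21.9% to 23.1%) and 21.7% (20.3% to 23.02%). The intervals of the stages overlapped for both. miR-96 made up 0.755% (0.639% to 0.886%) of the reads at peak and 0.996% (0.702% to 1.37%) at late lactation, which also overlapped. This did not hold for the leading tags alone, where miR-182 made up 82.5% (81.6% to 83.4%) at peak and 86.6% (84.9% to 88.2%) at late lactation and miR-183 16.6% (15.8% to 17.5%) and 12.3% (10.7% to 13.96%), with no overlap. Expressed as ratios over all tags, there were 3.41 reads of miR-182 for each read of miR-183 at peak and 3.57 at late lactation. For each read of miR-96 there were 101.6 reads of miR-182 and 29.8 of miR-183 at peak, against 77.7 and 21.8 at late lactation.

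The difference between members in their log2 ratio was tested for 3 pairs with Fisher's exact test, two-sided, with Benjamini-Hochberg adjustment; the scaling of the libraries cancels in it. No pair passed the threshold of 0.05. The ratio of miR-182 was above that of miR-183 by 0.065 (-0.058 to 0.19), with an adjusted p of 0.302. Over all tags of each member the interval thus reached up to 0.19. With the leading tag alone, however, the difference was 0.51 (0.27 to 0.75), with an adjusted p of 4.07e-05 by Fisher's exact test, so the answer depends on which tags are counted. miR-182 minus miR-96 was -0.39 (-0.92 to 0.18) and miR-183 minus miR-96 was -0.45 (-0.99 to 0.12), both with an adjusted p of 0.238. With 37 late reads, miR-96 left these intervals wide, and a difference of that size was not detectable at this depth.

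The ends of the reads gave a finer view than the levels. The 5′ end decides the seed, and the 3′ end reflects how the miRNA was cut and later trimmed or extended. Here 12 forms were compared between the libraries with Fisher's exact test, two-sided, on reads of the form against all other reads of the member, adjusted over the 12. The positions were picked after the reads at each position had been seen, so the p-values describe these libraries and are no independent evidence.

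miR-182 began almost always at nt 1, so its seed was uniform. Reads that start at nt 1 made up 99.5% of miR-182 at peak (15056 reads) and 99.8% at late lactation (2869 reads). Only 32 reads at peak and 2 at late lactation started at nt 2. Its 3′ end, by contrast, was spread over nt 19 to nt 27. The most frequent last base was nt 24 in both libraries, and shorter ends from nt 21 to nt 23 together with longer ends at nt 25 and nt 26 made up most of the rest.

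The long forms of miR-182 were lower in the late library by more than the other forms. Reads that end after nt 24 numbered 2876 at peak, 19.0% of miR-182 (18.4% to 19.6%), and 265 at late lactation, 9.22% (8.19% to 10.3%). The share differed by -9.78 percentage points (Fisher's exact test, adjusted p = 2.40e-40), and the level of these reads was 151 RPM at peak and 35.9 RPM at late lactation, a log2 ratio of -2.07 (-2.26 to -1.89). Reads that end at nt 24 took a larger share in the late library, 48.9% (47.1% to 50.8%) against 37.6% (36.9% to 38.4%), with an adjusted p of 1.36e-28. Their level was nevertheless lower there, at 190.4 RPM against 299 RPM, a log2 ratio of -0.65 (-0.74 to -0.57). Reads that end before nt 24 made up 43.3% and 41.9% (adjusted p = 0.207), with a log2 ratio of -1.08. The lower level of miR-182 in late lactation was therefore uneven over its end forms, and the leading tag alone did not reach 2-fold: it held 5583 reads (293 RPM) at peak and 1392 reads (188 RPM) at late lactation, a log2 ratio of -0.64 (-0.72 to -0.55).

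The longer forms of miR-182 run past nt 24, the end of the leading tag. Whether their further bases are encoded in the hairpin was not analysed here. The tag of 25 nt is shown with its seed in capitals.
miR-182 to nt 25: tTTGGCAAtggtagaactcacactg
It held 1392 reads (73.1 RPM) at peak and 120 reads (16.2 RPM) at late lactation. All reads from nt 1 to nt 25 had a log2 ratio of -2.18 (-2.46 to -1.92), those to nt 26 -1.87 (-2.14 to -1.62), and those to nt 27, from 83 and 3 reads, -3.42 (-5.73 to -1.83). Among shorter forms the ratio went up and down with length, at -1.16 (-1.35 to -0.98) for nt 21, -0.77 (-0.92 to -0.63) for nt 22, -1.41 (-1.59 to -1.25) for nt 23 and -0.65 (-0.73 to -0.57) for nt 24. From nt 21 to nt 25 the intervals of neighbouring lengths did not overlap, whereas those of nt 25 and nt 26, and of nt 26 and nt 27, did.

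**Figure D2:**
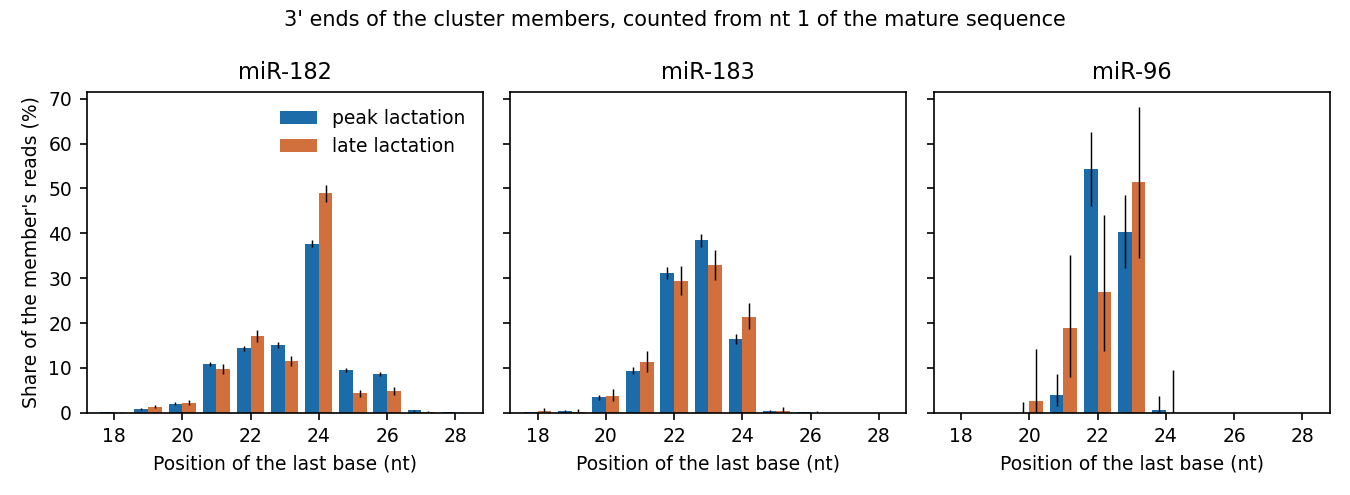
Share of the reads of each member (%, y axis) by the position of the last base (nt counted from nt 1 of the mature sequence, x axis) in the peak and the late lactation library; thin bars are 95% exact binomial intervals. For miR-182 the share at nt 24 was 37.6% at peak and 48.9% at late lactation, while for miR-96 the intervals of 37 late reads were wide.

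miR-183 differed from its partners at the 5′ end. Reads that start at nt 2, and so carry the seed TGGCACT in place of ATGGCAC, numbered 1329 at peak, or 29.95% of miR-183 (28.61% to 31.3%), and 268 at late lactation, or 33.3% (30.04% to 36.7%). The shares at the stages did not pass the test (Fisher's exact test, adjusted p = 0.122). The shifted form stood at 69.8 RPM at peak and 36.3 RPM at late lactation, a log2 ratio of -0.94 (-1.14 to -0.75). The form from nt 1 stood at 162 RPM and 72.4 RPM, a log2 ratio of -1.16 (-1.30 to -1.03). The shifted miR-183 thus held more reads than all of miR-96 in each library.

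The share of reads that start at nt 2 was set against 698 other tag groups whose leading tag was 20 to 24 nt long, with at least 1000 reads at peak and 200 at late lactation. Their median share was 6.01% at peak and 7.02% at late lactation. miR-183 was above this median, and 69 of the 698 groups had a higher share in each library. miR-182, with 0.212% and 0.0696%, was below the median, with 548 and 596 groups above it. The partners from the same transcript thus stood on opposite sides of the median of these groups in their share of reads that start at nt 2. The groups were not limited to miRNAs and can share reads, so their median is no norm for miRNAs. Other shifts of the 5′ end were not compared here.

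The 3′ end of miR-183 lay mostly at nt 22 to nt 24. Reads that end at nt 23 made up 38.5% at peak and 32.9% at late lactation (Fisher's exact test, adjusted p = 0.00778), and those that end at nt 24 made up 16.4% and 21.4% (adjusted p = 0.00313). Reads that end at nt 22 made up 31.1% and 29.4% (adjusted p = 0.362). The share of nt 24 was thus larger and that of nt 23 smaller in the late library.

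The start and the end of miR-183 went together. Of the reads that start at nt 2, 31.7% (29.2% to 34.3%) ended at nt 24 in the peak library and 45.9% (39.8% to 52.1%) in the late library. Of those that start at nt 1, 9.84% (8.81% to 10.9%) and 9.16% (6.85% to 11.9%) did so. Fisher's exact test of the start against the end at nt 24, also chosen after the reads were seen, gave p = 8.67e-67 within the peak library and p = 2.29e-31 within the late library. Reads that were shifted at the 5′ end were thus more often shifted at the 3′ end as well. The values that follow, and their tests, were picked after the reads had been seen, so the p-values are no independent evidence. The form from nt 2 to nt 24 stood at 22.1 RPM at peak (421 reads) and 16.7 RPM at late lactation (123 reads), a log2 ratio of -0.41 (-0.71 to -0.12). The form from nt 1 to nt 24 stood at 15.96 RPM (304 reads) and 6.63 RPM (49 reads), a log2 ratio of -1.27 (-1.73 to -0.83). The ratios of these forms differed by 0.86 (0.32 to 1.41), with an adjusted p of 0.00383 by Fisher's exact test, two-sided, over 3 comparisons of forms that end at nt 24.

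The last base at nt 24 was mostly A or T, and the levels of the 2 kinds differed in their ratio. From nt 2, the tag that ends in A, shown above, held 254 reads at peak (13.3 RPM) and 91 at late lactation (12.3 RPM), a log2 ratio of -0.11 (-0.48 to 0.24). The corresponding reads that end in T numbered 166 and 32, a log2 ratio of -1.01 (-1.60 to -0.46). From nt 1, reads that end in A numbered 166 and 35, a log2 ratio of -0.88 (-1.45 to -0.35), and those that end in T numbered 137 and 14, a log2 ratio of -1.92 (-2.83 to -1.13). By the same exact tests, A minus T was 0.89 (0.22 to 1.59) from nt 2, with an adjusted p of 0.0114, and 1.04 (0.043 to 2.11) from nt 1, with an adjusted p of 0.0302. The tag from nt 2 that ends in A was thus at a like level in both libraries, while every other form of miR-183 from nt 22 to nt 24 listed here had a ratio interval wholly below 0. Whether the last base is encoded in the hairpin was not analysed here.

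**Figure D3:**
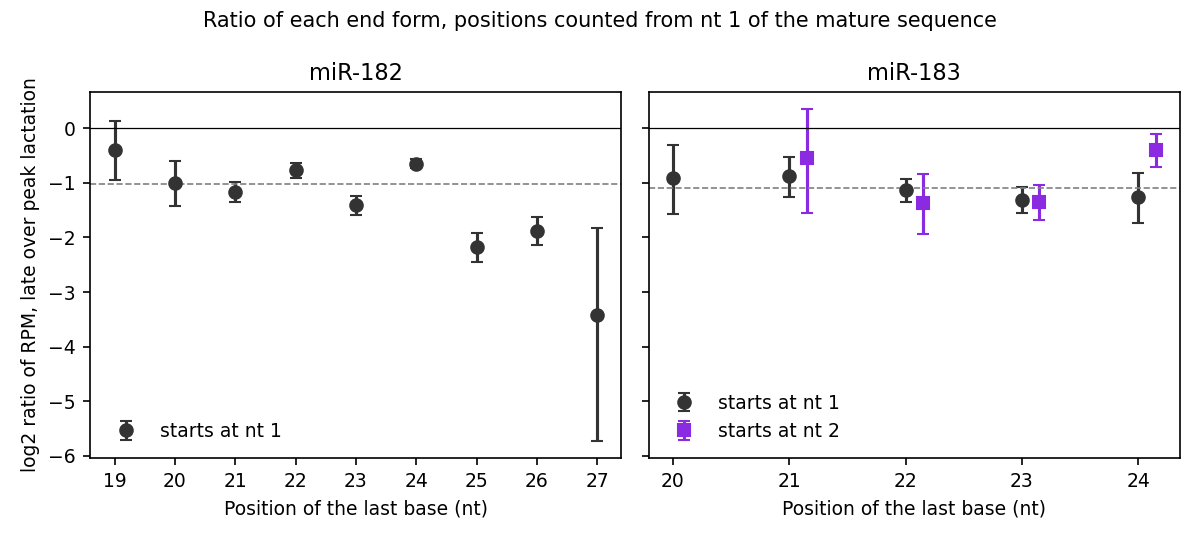
log2 ratio of RPM, late over peak lactation (y axis), of the end forms of miR-182 and miR-183 by the position of the last base (x axis), for reads that start at nt 1 (circles) or nt 2 (squares); bars are 95% exact binomial intervals, and the dashed line is the ratio of the whole member. For miR-182 the forms to nt 25 (-2.18) and nt 26 (-1.87) were below the member's -1.03, and for miR-183 the form from nt 2 to nt 24 (-0.41) was above the member's -1.10.

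miR-96 had too few reads for a fine view, but its most abundant 3′ end was not the same in the libraries. Of the counted reads, which had to contain nt 2, all 149 at peak and 36 of the 37 at late lactation started at nt 1. Reads that end at nt 22 numbered 81 at peak (54.4%; 46.0% to 62.5%) and 10 at late lactation (27.03%; 13.8% to 44.1%), with an adjusted p of 0.00778 by Fisher's exact test. Reads that end at nt 23 numbered 60 (40.3%) and 19 (51.4%), with an adjusted p of 0.290. The most abundant tag at peak was the one below, with its seed in capitals.
miR-96 to nt 22: tTTGGCACtagcacatttttgc
It held 78 reads (4.10 RPM) at peak and 6 reads (0.812 RPM) at late lactation, whereas the leading tag, which is longer by 1 base, held 59 reads (3.10 RPM) and 18 reads (2.44 RPM).

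The lengths of the members were read against the same 698 groups. The mean position of the last base of miR-182 was nt 23.4 at peak and nt 23.2 at late lactation, a change of -0.16 nt, beside a median change of -0.16 nt over the other groups. A more negative change was found in 346 of the 698, and 466 had a change below 0. For miR-183 the change was 0.011 nt, with 475 groups below it. The share of reads longer than the leading tag changed by -9.84 percentage points for miR-182, beside a median of -1.60 points, and 189 of the 698 groups had a more negative change. Shorter 3′ ends in the late library were therefore common among these groups, and miR-182 lay within their range.

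The members differed in whether other small RNAs carry their seed. Over all tags with TTGGCAA at nt 2 to 8, miR-182 made up 98.9% of the reads in each library. Over those with ATGGCAC, miR-183 made up 98.8% and 95.9%, and over those with TGGCACT, the shifted miR-183 made up 96.0% and 94.0%. The reads with these seeds were thus almost all from the cluster.

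The seed of miR-96, TTGGCAC, was shared with a second tag group. Tags with this seed held 331 reads (17.4 RPM) at peak and 151 reads (20.4 RPM) at late lactation, and their log2 ratio was 0.23 (-0.05 to 0.52). miR-96 made up 45.0% (39.6% to 50.6%) of them at peak and 23.8% (17.3% to 31.4%) at late lactation. The next group with the seed, whose sequence is the one below, held most of the others.
Next group with the seed of miR-96: cTTGGCACctagtaagtactca
It held 143 reads (7.51 RPM) at peak and 103 reads (13.9 RPM) at late lactation, and its log2 ratio was 0.89 (0.51 to 1.27). miR-1271 is known to share the seed of miR-96, but the deposited tags carry no names. The total of this seed thus had a ratio interval that includes 0, while the ratio over all tags of miR-96 lay below 0 and that of the other group above 0. With the leading tag of miR-96 alone, as given above, the interval of its ratio included 0.

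**Figure D4:**
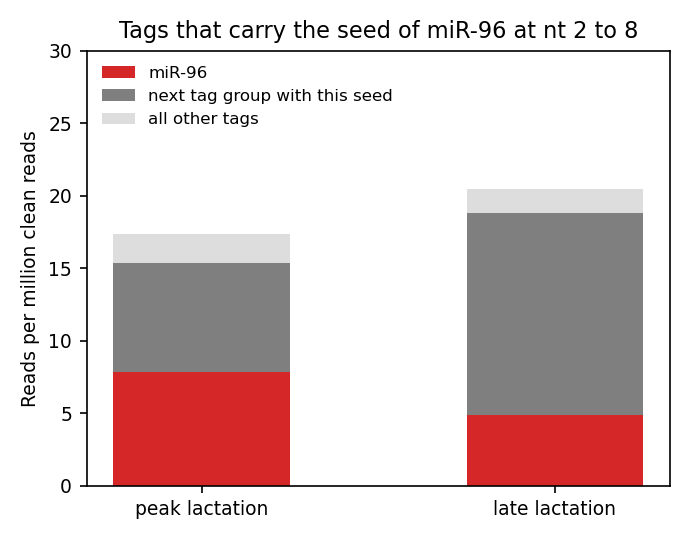
Level in RPM of all tags with the seed of miR-96 at nt 2 to 8, stacked as miR-96, the next tag group with this seed and all other tags, in the peak and the late lactation library. The whole stack was 17.4 RPM at peak and 20.4 RPM at late lactation, and miR-96 was 45.0% and 23.8% of it.

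Because the libraries were made from whole gland, miRNAs known to mark its cell types were measured beside the cluster. Fewer cells of a type and less RNA per cell cannot be told apart in such tissue. Each miRNA was measured as all tags with its seed at nt 2 to 8, so relatives with the same seed were added in. Over all 11841 seed classes, 1285 (10.9%) were called lower and 3379 (28.5%) were called higher in the late library, and the median log2 ratio of all classes was 0.55.

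Of the 5 epithelial seed classes, 1 was called lower and 2 were called higher, with a median log2 ratio of 0.62 and a summed level of 32507 RPM at peak and 26795 RPM at late lactation. miR-203, which is known from stratified epithelium, was lower like the cluster, at 33.9 and 14.4 RPM (log2 ratio -1.24, -1.55 to -0.94). The leading group made up 87.1% of the miR-203 class at peak and 62.3% at late lactation. With only tags that share the first 18 nt of the leading tag, the log2 ratio of miR-203 was -1.77. The class of miR-200b, miR-200c and miR-429, which hold cells in the epithelial state by repressing ZEB1 and ZEB2, stood at 27786 and 15014 RPM (log2 ratio -0.89, -0.90 to -0.88) and was not called, although with tags that share the first 18 nt of its leading tag it passed 2-fold (-1.06). The log2 ratio of the cluster minus that of this class was -0.15 (-0.20 to -0.10). The other epithelial classes lay on the other side of 0. miR-141 and miR-200a, of the same family, had a log2 ratio of 0.62, miR-205, a miRNA of basal epithelial cells, 1.40, and miR-375 3.08, from 619 to 5247 RPM. The epithelial list thus did not move in one direction, and the cluster stood with its 2 lower classes.

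The classes known from other cells were mostly higher in the late library. Of the 5 of stroma and smooth muscle, 3 were called higher and none lower, with a median log2 ratio of 1.08 and a summed level of 190650 RPM at peak and 334501 RPM at late lactation. miR-145 of smooth muscle went from 160.5 to 1504 RPM (log2 ratio 3.23) and miR-214 from 18.8 to 210 RPM (3.48), and the class of miR-199a-5p and miR-199b-5p had a log2 ratio of 1.08. This last call was lost (0.68) when only tags that share the first 18 nt of its leading tag were counted. The other 2 were not called, with miR-143, by far the most abundant, at 0.81 and the class of miR-199a-3p and miR-199b-3p at -0.03. For miR-214 the leading group made up only 28.5% of the class at peak, and its log2 ratio was 5.22 when only tags that share the first 18 nt of the leading tag were counted.

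Of the 4 classes of white blood cells, 3 were called higher: miR-223 of granulocytes (log2 ratio 3.59), miR-150 of lymphocytes (2.21) and miR-142 (1.03), which is made across blood cells. The fourth, miR-155, had a log2 ratio of -0.43, and the summed level of the list was 1157 RPM at peak and 1314 RPM at late lactation. Of the 3 classes of red blood cells, miR-144 was called higher (3.71), while miR-451 (0.97) and miR-486 (-0.60) were not called, and the summed level was 1917 and 3255 RPM. miR-126, which marks endothelium, was called lower, at 11313 and 5004 RPM (log2 ratio -1.18, -1.19 to -1.16), and the cluster was above it by 0.14 (0.082 to 0.188). Markers of several cell types thus differed between the libraries by as much as the cluster did, and their part in its lower level was not tested.

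**Figure D5:**
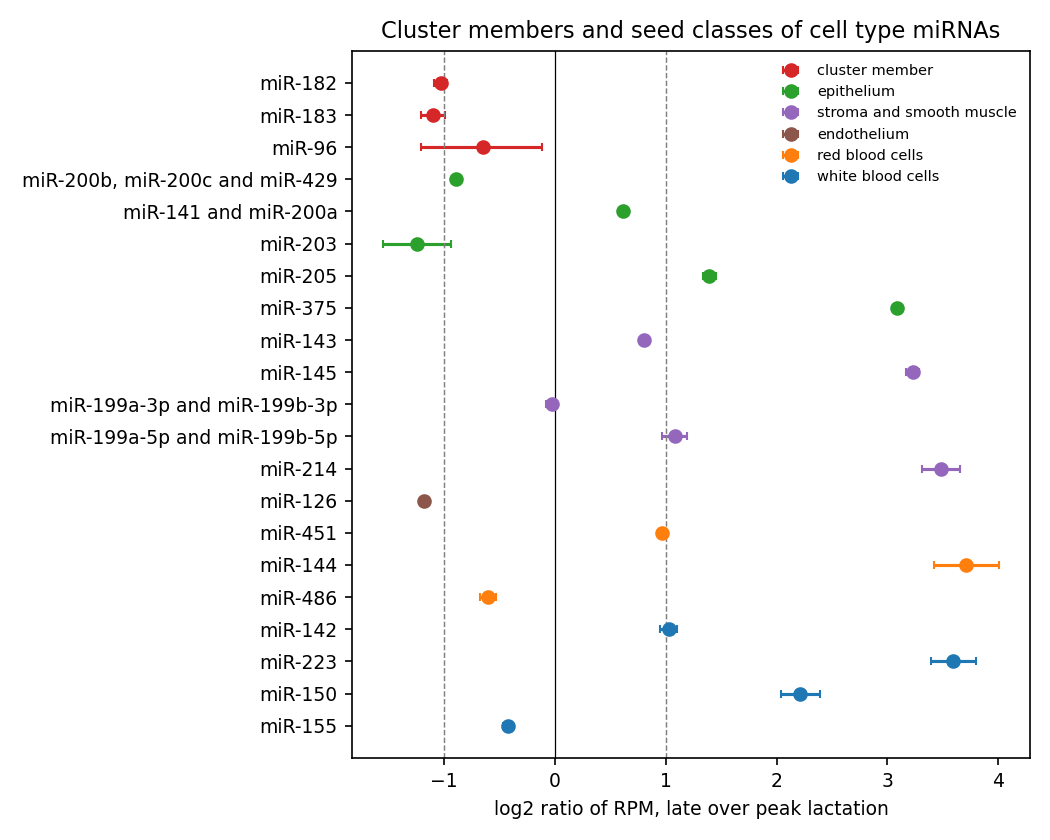
log2 ratio of RPM, late over peak lactation (x axis), of the cluster members and of the seed classes of miRNAs that mark cell types (y axis, coloured by cell type); bars are 95% exact binomial intervals and dashed lines mark a 2-fold ratio. miR-182 (-1.03) and miR-183 (-1.10) lay near miR-203 (-1.24), the miR-200b class (-0.89) and miR-126 (-1.18), and far from miR-375 (3.08) and miR-145 (3.23).

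Among 1297 other tag groups with at least 100 RPM in peak lactation, the 5 whose log2 ratio lay nearest to that of the sum of the members differed from it by at most 0.0038. With 1 ratio per group, this likeness rests on a single pair of libraries. They are given by their leading tags, with nt 2 to 8 in capitals, since the deposited tags carry no names.
Group 1: aATGGATGaacgagattc
Group 2: tGTGTTAGgacccgaaatatggt
Group 3: cTAAGCCAgggattgtgggt
Group 4: cGTGGAGCcgggcgtgga
Group 5: aTCTCGTCtgatctcggaagc
Group 2, of 23 nt, was the most abundant, with 77655 reads (4078 RPM) at peak and 14643 reads (1983 RPM) at late lactation. The other groups lay between 134 and 321 RPM at peak and between 65.1 and 156 RPM at late lactation. Of the 5, only groups 2 and 5 had a leading tag of at least 21 nt, and none carried a seed of the cluster.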

How the data were processed

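Small RNA of goat mammary gland was sequenced on an Illumina 1G Genome Analyzer, in 1 library per stage. The authors excised RNA of 18 to 30 nt from a gel, removed low-quality reads, adaptor reads, empty reads, poly(A) reads and reads under 18 nt, and deposited raw counts per distinct tag for both libraries, with no normalization, and a record of reads kept at every filtering step. For this trimming and collapsing, tool versions were not given in the sources used here; later steps of the authors, such as mapping, do not enter these files and were not used.

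Counts were joined by sequence and divided by clean reads. The members were named in the request and, like the lists of cell type miRNAs, were chosen with earlier results of these data known. No table of mature miRNAs or hairpins was used here. Each member was therefore found from its known seed: its leading tag is the most abundant tag with T followed by the seed, and nt 2 to 17 of that tag selected the reads. The counts were checked against the member names in the study's own table. Cell type miRNAs were measured as seed classes, and the background as tag groups by nt 2 to 17, in place of groups from a reference table. A tag already in a group could be counted again in a later group. The opposite hairpin arms and bases not encoded by the hairpin were not analysed here.

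Named by rule were the members, the listed cell type miRNAs, the 5 groups nearest in ratio, and the 5 most abundant tags of each member. Calls needed 2-fold and P below 0.01 (Audic-Claverie); groups needed 1 RPM in one library. Intervals of differences from seed classes are normal approximations on the log scale. Fisher's exact tests compare the reads of 2 libraries. No test across goats was possible. The call rule and the grouping were tested on simulated data. Alternatives were the scaling (TMM of edgeR 4.0.16 and median-ratio factors of DESeq2 1.42.0, each from the 12263 tags with 10 or more reads per library, tags of 18 to 30 nt, or totals without the 10 most abundant tags), the matching, the filters on low values and a pseudocount of 1 read. Versions were Python 3.11.15 (scipy 1.17.1, pandas 2.3.3, numpy 2.4.6, matplotlib 3.10.9) and R 4.3.3.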

Additional observations from a re-analysis of the deposited data

How the results depend on the processing

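Main values of the comparisons were set against their alternatives, and 90 times the direction and the side of the threshold were kept or the value moved within its interval; no alternative that was run reversed a result. The log2 ratio of miR-182 lost its 2-fold call with totals without the 10 most abundant tags (-0.95), with the leading tag only (-0.64) and with tags that contain the whole leading tag (-0.98). The sum of the members lost it with those totals (-0.96) and with the leading tag only (-0.71). With the leading tag only, the difference of miR-182 from miR-183 passed the threshold (0.51, adjusted p = 4.07e-05 by Fisher's exact test). The leading tags leave out both the shorter and the longer forms of each member, and the part of these forms in the difference was not tested. With tags that start at nt 1, which leaves out the shifted miR-183, the share of miR-182 in the cluster was 82.3% at peak and 83.4% at late lactation and that of miR-183 16.9% and 15.6%. With the leading tag only these were 82.5%, 86.6%, 16.6% and 12.3%. The number of tag groups called was 8464 of 14433 tested. It was 12812 of 314872 without a filter and 2781 of 4590 with at least 10 RPM. With totals without the 10 most abundant tags it was 12710 of 24095, where fewer reads in the total lift more groups over 1 RPM. The cause of the other changes was not tested. Among cell type classes restricted to tags that share the first 18 nt of the leading tag, miR-200b, miR-200c and miR-429 became called (-1.06), and miR-199a-5p and miR-199b-5p lost the call (0.68). TMM and median-ratio factors moved ratios by -0.0026 and -0.025. Totals over reference miRNA groups and bases not encoded by the hairpin were not run, since no such table was used. No library could be left out, and no paired analysis was possible because each stage has 1 library of pooled RNA. The depth limits miR-96 most, with 37 reads at late lactation. A floor of 3 reads, taken as the limit for a count of 0, is 0.158 RPM at peak and 0.406 RPM at late lactation. This floor is a set value and not the end of an exact Poisson interval.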

Other observations

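Some tags of the cluster were longer than the excised RNA. For miR-182, 34 tags of 32 to 44 nt held 53 reads at peak (0.350% of the member) and 2 at late lactation (0.0696%). For miR-183, 10 such tags held 10 reads and 1 read, and for miR-96, 1 tag of 44 nt held 1 read at peak. These reads were counted with their members and are too few to change a level.

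Tags with a single mismatch in nt 2 to 17 would have added 173 reads at peak (1.13% of the enlarged sum) and 22 at late lactation (0.760%) to miR-182. To miR-183 they would have added 55 (1.22%) and 13 (1.59%). For miR-96 there were 5 such reads at peak (3.25%) and none at late lactation. The reads lost to base changes were thus a small part of each member in both libraries.

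At nt 26 of miR-182 the last base was mostly G, in 91.3% of the reads at peak and 85.5% at late lactation, and otherwise mostly T, in 7.56% and 14.5%. At nt 24 of miR-183 it was A in 57.9% of the reads at peak and 73.3% at late lactation.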
